A study of Homo sapiens and Mus musculus with 6 samples.

Results

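In the Promoter CHi-C calls of mouse embryonic stem cells (mESCs), 422 of 101841 calls joined a promoter to a fragment on another chromosome and lay scattered over the genome. They are the dispersed trans-chromosomal calls. Each end of a trans-chromosomal call was given to the 1-Mb area that holds its midpoint, and a call was kept where its pair of areas, in either order, held under 10 trans-chromosomal calls. The 422 calls made up 72.9% of the 579 trans-chromosomal calls (Wilson 95% interval 69.1 to 76.3%) and 0.414% of all calls (0.377 to 0.456%). The other 157 were concentrated in 4 area pairs and are called clustered. The members were thus chosen by the deposited calls themselves and their number per area pair, so these numbers are given as a description. Of the 307 area pairs with a dispersed call, 242 held 1 call, 44 held 2 and 21 held 3 to 9.

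The cells were J1 mESCs of strain 129S4/SvJae, unmodified and untreated, which were grown on embryonic fibroblast feeders and fixed with formaldehyde. CHi-C was carried out on 2 biological replicates, which the authors called jointly with CHiCAGO, so that there is 1 set of calls and no spread between replicates. Hi-C was available from 1 library of these cells. The human lymphoblastoid cell line GM12878, with 3 CHi-C replicates and also 1 joint set of calls, was used only to apply the same rule to another cell type. The labelled cell type could not be checked from contacts alone. Intervals are Wilson 95% intervals, which cover counting error only, and neighbouring calls are not independent.

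In CHi-C, DNA is cut with HindIII, fragments that were close in the nucleus are ligated to each other, and fragments with a promoter are pulled out as baits. Chromosomes occupy separate territories in the nucleus, so contacts between chromosomes are rare, and those known include clusters of silent developmental genes bound by Polycomb proteins in embryonic stem cells. A read pair that joins 2 chromosomes can also come from ligation in solution, or from a read placed at the wrong one of several copies of a sequence, and such pairs serve CHiCAGO as a measure of technical noise.

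Most dispersed calls rested on few reads. The read count, a weighted mean over the replicates rounded to a whole number, was 2 or 3 in 178 of the 422 calls, with a median of 4, quartiles of 3 and 6, and a highest value of 226. Clustered calls had the same median of 4 reads, and cis-chromosomal calls over 10 Mb, of which there were 694, had a median of 5. The CHiCAGO score, which grows with the evidence for a call and is at least 5 in the deposited list, had a median of 12.5 and ran from 5.04 to 2028. The score was under 10 in 159 calls and 50 or more in 54. The lowest read count of a member was 2.

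**Figure D1:**
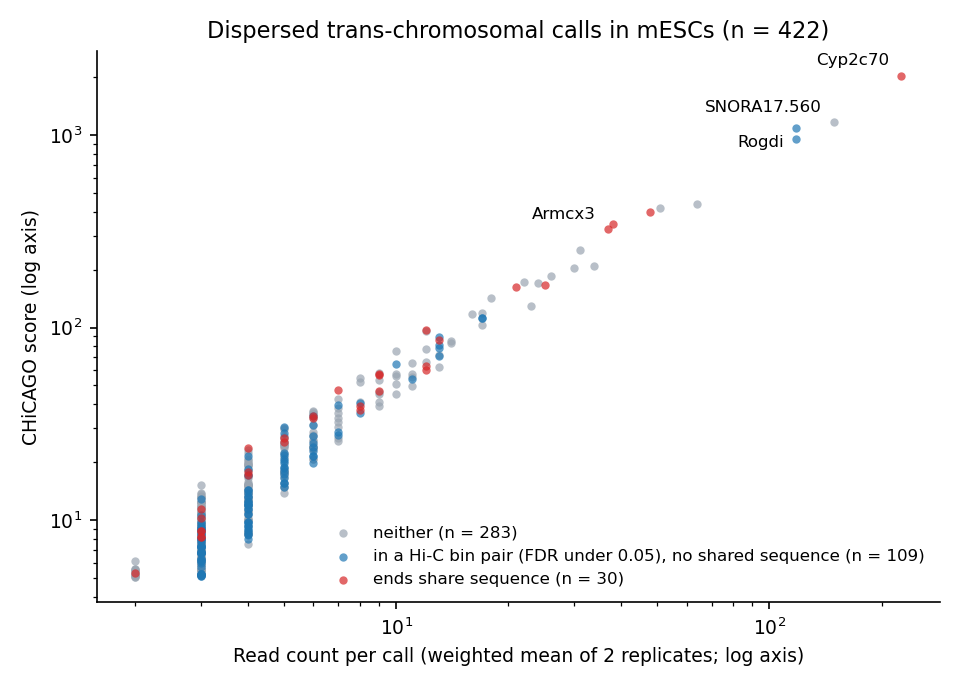
Read count and CHiCAGO score of each of the 422 dispersed trans-chromosomal calls, on log axes. Red points are the 30 calls whose ends share sequence, blue points are the 109 other calls within a 1-Mb Hi-C bin pair, and grey points are the remainder. Most calls lie at 6 reads or fewer, and the red points are found along the whole range up to the Cyp2c70 call at 226 reads.

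Dispersed calls ran mostly from promoters to fragments without a bait. The other end was itself a bait in 52 calls (12.3%, 9.52 to 15.8%). This share was 15.3% (10.5 to 21.7%) in clustered calls, 51.6% (47.9 to 55.3%) in cis-chromosomal calls over 10 Mb and 35.1% (34.8 to 35.4%) in all 101262 cis-chromosomal calls. In the annotation of the same build, mm9, the other end held a transcription start in 21.6% of dispersed calls (17.9 to 25.7%), an exon but no start in 13.98%, intronic sequence alone in 17.3% and no gene in 47.2% (42.4 to 51.9%). Of the other ends of all cis-chromosomal calls, 45.5% held a start and 21.3% no gene, and of those of clustered calls 23.6% (17.61 to 30.79%) and 32.5% (25.7 to 40.2%). The other ends were also shorter, with a median of 3047 bp against 4174 bp for other ends of cis-chromosomal calls, and their ratio of observed to expected CpG had a median of 0.197 against 0.216. In other ends of clustered calls these medians were 3530 bp and 0.142. The 310 baits had a median CpG ratio of 0.277, against 0.300 for all 16265 baits with a call.

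The baits with a dispersed call were spread over all 20 chromosomes that the list covers, and 143 of 190 possible chromosome pairs held a call. Of the 310 baits, 256 had 1 dispersed call, and of the 383 other ends, 352 had 1. The share of a chromosome's called baits with a dispersed call ran from 0.806% on chromosome X (0.275 to 2.34%) to 3.10% on chromosome 12 (1.94 to 4.90%), and the intervals of these 2 chromosomes overlapped. Chromosome 11 held 106 of the call ends, 12.6%, of which 75 were baits, and these 75 came from 29 baits. It also holds 1554 of the 16265 baits with a call, and 1.87% of these 1554 had a dispersed call (1.30 to 2.67%). The Sfi1, Gm16040 and Gm11399 baits on it made 25, 9 and 5 calls. No cis-chromosomal call was listed for 82 of the 310 baits. Among the other 15955 baits this was so for 5, but those baits are in the list because they have a call. The median number of cis-chromosomal calls per bait was 2.5 and 3.

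**Figure D2:**
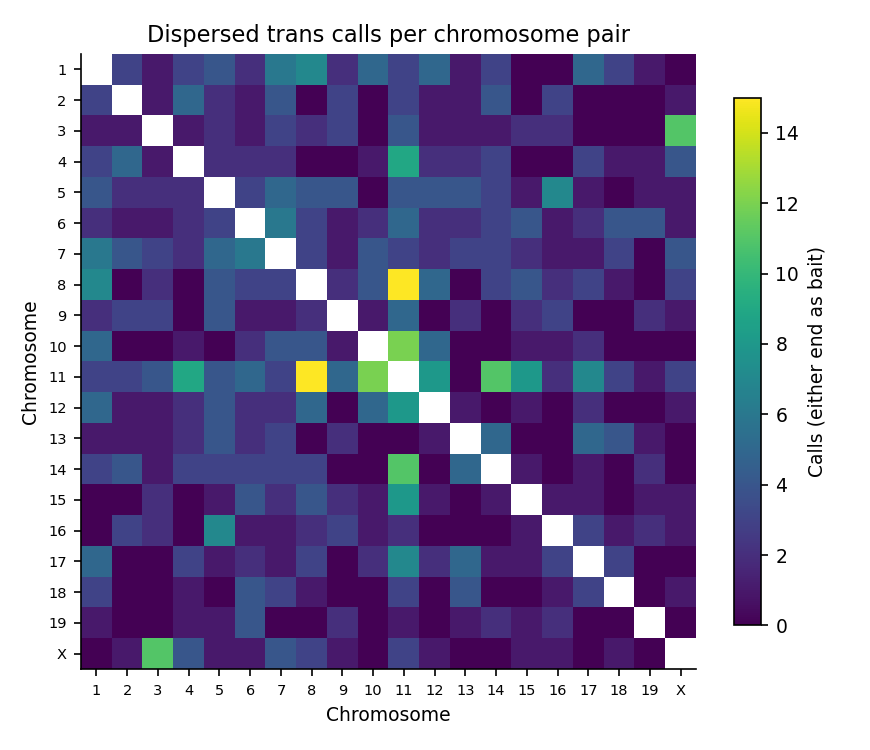
Number of dispersed trans-chromosomal calls for each pair of chromosomes, with either end as the bait. The colour gives the number of calls, the diagonal is empty by definition, and the pair of chromosomes 8 and 11 had the most, 15 calls.

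The call with the highest score ran from Cyp2c70 (chr19:40261781-40266348), a cytochrome P450 of bile acid metabolism, to a fragment with an exon of the nuclear receptor gene Nr1d2 (chr14:19047343-19052469). It rested on 226 reads with a score of 2028. The second ran from a bait named for the small nucleolar RNA SNORA17.560 (chr15:11287940-11292842) to intergenic sequence on chromosome 16 (chr16:53569971-53571879), on 149 reads with a score of 1161. The bait of Rogdi (chr16:5013163-5015207) and that of Fam47e (chr5:92974554-92987419) called each other on 118 reads, with scores of 1084 and 954.7, and adjoining or nearby fragments were called on 3 to 6 reads. Their area pair, with 6 calls in all, held 52 Hi-C read pairs where 18.5 were expected. The B3galtl bait, for a glycosyltransferase, reached an intronic fragment of 2210408I21Rik on chromosome 13 on 51 reads.

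Pairs of promoters called from both ends numbered 22, which gave 44 of the 52 bait-to-bait calls (84.6%, 72.5 to 92.0%). In clustered calls this was so for 12 of 24 bait-to-bait calls (50%, 31.4 to 68.6%). Both calls of each named pair had the same read count, so they are not separate observations. Apart from Rogdi and Fam47e, the 22 pairs of dispersed calls rested on 3 to 12 reads. They included U6.363 and U6.142, genes for the U6 RNA of the spliceosome (12 reads), Gm17160 and Oca2, a gene of pigment granules (6 reads), Batf, an AP-1 family transcription factor, and Fbln2, an extracellular matrix protein (4 reads), the metallothionein Mt1 and Gm8225 (4 reads), and Jund, a subunit of AP-1, and Hexim1, an inhibitor of transcription elongation (4 reads). Jund and Hexim1 lay in areas joined by 40 Hi-C read pairs where 15.5 were expected.

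Some of the dispersed calls joined fragments that share sequence, among them genes and near-identical copies. The fragments of each pair were aligned with blastn, and a pair was said to share sequence where 1 aligned stretch reached 100 bp with 95% of its bases identical. Of the 400 distinct fragment pairs, 25 did (6.25%, 4.27 to 9.06%), against 0.9% of 2889 pairs of cis-chromosomal calls over 1 Mb and none of 151 clustered pairs, which allows up to 2.48% by the Wilson bound. Counted as calls, 30 of 422 shared sequence (7.11%, 5.02 to 9.97%). The share was 3.14% (1.35 to 7.15%) in calls with a score of 5 to 10, 3.17% (1.24 to 7.88%) from 10 to 20, 10.8% (5.81 to 19.3%) from 20 to 50 and 22.2% (13.2 to 34.9%) at 50 or more. Calls whose ends shared sequence had a median of 7.5 reads, and the other 392 had a median of 4. In bait-to-bait calls the share was 19.2% (10.8 to 31.9%), against 5.41% (3.53 to 8.20%) in other dispersed calls. No test was made, since there is 1 set of calls.

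**Figure D3:**
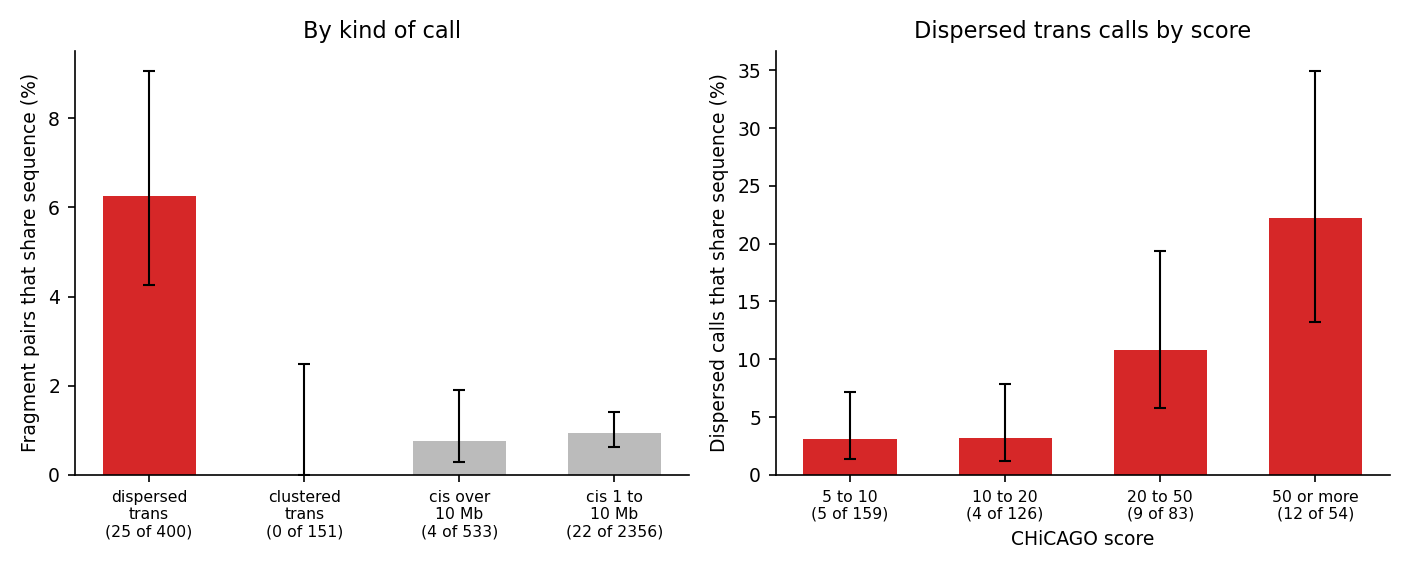
Left, the percentage of fragment pairs whose ends share sequence, for dispersed and clustered trans-chromosomal calls and 2 classes of cis-chromosomal calls. Right, the percentage of dispersed calls that share sequence by class of CHiCAGO score. Bars are shares and lines are Wilson 95% intervals. The dispersed calls stand at 6.25% and the cis-chromosomal pairs under 1%, and the 54 dispersed calls with a score of 50 or more stand at 22.2%.

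The clearest family was that of Ccnb1, which encodes cyclin B1, the partner of the kinase that drives entry into mitosis. Its bait (chr13:101555431-101556884) made 6 dispersed calls on 4 chromosomes other than its own, on 3 to 13 reads, and in 3 of them the bait and the other end shared sequence. With its coding transcripts in place of the bait fragment, an alignment chosen after the values were seen, 5 of the 6 other ends carried Ccnb1 sequence. Fragments on chromosomes 4 (13 reads), 14 (9 reads) and 7 (6 reads) held the same stretch of an exon. The first 150 bases of its coding sequence that the alignments cover are shown in mm9, 5′ to 3′ in the sense of Ccnb1, because they show how close the copies are. Capitals mark bases that differ from the bait.

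Ccnb1, chr13:101555709-101555858, minus strand: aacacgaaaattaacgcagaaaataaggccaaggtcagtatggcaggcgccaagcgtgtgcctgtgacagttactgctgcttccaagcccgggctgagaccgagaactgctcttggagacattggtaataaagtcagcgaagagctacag
Copy on chromosome 4, chr4:118615787-118615936, minus strand: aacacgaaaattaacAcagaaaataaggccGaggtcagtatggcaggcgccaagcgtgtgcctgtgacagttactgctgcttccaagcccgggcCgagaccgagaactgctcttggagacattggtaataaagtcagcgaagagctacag
Copy on chromosome 14, chr14:9241450-9241599, plus strand: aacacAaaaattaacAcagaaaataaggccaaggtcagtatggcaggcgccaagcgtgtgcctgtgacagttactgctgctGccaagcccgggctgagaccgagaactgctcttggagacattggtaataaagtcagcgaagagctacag
Copy on chromosome 7, chr7:49362385-49362534, minus strand: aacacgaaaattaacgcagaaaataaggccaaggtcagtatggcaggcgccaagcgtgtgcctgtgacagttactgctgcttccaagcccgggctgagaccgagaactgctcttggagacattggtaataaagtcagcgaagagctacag

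Over these 150 bases the copies on chromosomes 4 and 14 differed from the bait at 3 positions each and the copy on chromosome 7 at 0. The annotation names a pseudogene at the copies on chromosome 4 (Gm12856) and chromosome 7 (Gm5593) and no gene at that on chromosome 14. The fragment next to the last, chr14:9241760-9251604, was called too on 3 reads, and 1448 bp of Ccnb1 transcript aligned to it at 97.4% identity. The fifth and sixth calls reached neighbouring places on chromosome 5 (3 and 5 reads), whose area pair held 37 Hi-C read pairs where 13.2 were expected.

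More reads joined other genes to shared sequence elsewhere. Armcx3, an X-linked gene for a mitochondrial protein with armadillo repeats, reached an intergenic fragment on chromosome 7 (chr7:135182325-135189020) on 37 reads with a score of 323.8, and the ends shared 1581 bp at 99.8% identity. In the first 150 aligned coding bases, shown with the differing base in capitals, 1 base differed.

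Armcx3, chrX:131293132-131293281, plus strand: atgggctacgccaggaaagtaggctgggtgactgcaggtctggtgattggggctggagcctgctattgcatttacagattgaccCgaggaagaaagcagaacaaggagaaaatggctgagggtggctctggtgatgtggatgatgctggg
Copy on chromosome 7, chr7:135185755-135185904, minus strand: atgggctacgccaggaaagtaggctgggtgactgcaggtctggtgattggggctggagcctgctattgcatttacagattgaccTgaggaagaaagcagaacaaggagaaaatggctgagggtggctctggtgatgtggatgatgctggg

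Spata3 (chr1:87905353-87916782) called a pair of neighbouring fragments of chromosome 8 that carry exons of Zfp617, on 48 and 25 reads, with shared stretches, to which no coding transcript of Spata3 aligned, of 1132 bp at 98.0% and 1449 bp at 97.9% identity, and their area pair held 69 Hi-C read pairs where 11.7 were expected. The predicted gene 1810037I17Rik reached fragments of the X chromosome on 38 and 7 reads. Promoters of a gene and of a named relative or predicted gene called each other in the pairs Fam136a and Fam136b-ps (9 reads) and Taf10, a subunit of the transcription factor TFIID, and Gm4799 (8 reads). Among the ribosomal proteins, Rps21 reached a fragment that overlaps an exon of Nell1 on 12 reads. Rps6 reached an intergenic fragment on 4 reads, and the shared stretches were 259 and 218 bp. The bait named for Snord4a, which also holds the ribosomal protein gene Rpl23a, made 4 dispersed calls of 3 to 6 reads, and all 4 shared sequence. The Cyp2c70 call described above shared 660 bp at 95.8% identity, also without an aligned transcript. In contrast, the ends of the SNORA17.560 and B3galtl calls had no alignment past the criterion. Coding transcripts of the bait gene aligned to the other end in 16 of 324 calls that have one (4.94%, 3.06 to 7.87%), against 1 of 538 cis-chromosomal calls over 10 Mb (0.186%, 0.0328 to 1.05%). In cis-chromosomal calls of 1 to 10 Mb they did so in 26 of 2405 (1.08%, 0.739 to 1.58%). In clustered calls it was 0 of 73, which allows up to 5.00% by the Wilson bound. In 4 of the 16, the fragments themselves had not met the criterion. Whether reads of these calls were placed at the wrong copy was not tested.

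Pre-capture Hi-C of the same cells gave a second measurement. A call was within a Hi-C pair where its 2 areas were a pair of 1-Mb bins with an FDR under 0.05. Of all 3024125 possible trans-chromosomal pairs of listed bins, 7060 were such pairs, which is 0.233%. Among dispersed calls it was 27.0% (114 calls, 23.0 to 31.4%), and of the 307 distinct area pairs it was 17.3% (53 area pairs, 13.4 to 21.9%). Among pairs of bins with a bait that has a call, 0.339% were Hi-C pairs, and among pairs of bins that hold an end of a dispersed call, whichever way they are combined, 0.672% were. For clustered calls the share was 89.8% (84.1 to 93.6%), from 3 of 4 area pairs. The fourth, with 16 calls, has an end in an unlisted area and could not be scored, so that all 141 clustered calls with both areas listed were within Hi-C pairs. The CHi-C libraries were enriched from Hi-C libraries of these cells, so the 2 measurements share steps of the protocol and perhaps molecules. A further 37 dispersed calls had an end in 1 of the 4 areas that are not in the Hi-C list and could not be scored. With these left out, 29.6% of calls were within Hi-C pairs (25.3 to 34.4%).

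The share was higher in area pairs with more calls. Of area pairs with 1 call, 8.68% were Hi-C pairs (5.75 to 12.9%, n = 242), of those with 2 calls 45.5% (31.7 to 59.9%, n = 44) and of those with 3 to 9 calls 57.1% (36.5 to 75.5%, n = 21). Area pairs with an end in an unlisted area count here as no Hi-C pair, and several of those with 3 to 9 calls, from the Sfi1 bait, are such. Over all classes, 53 of the 290 area pairs with both areas listed were Hi-C pairs (18.3%, 14.3 to 23.1%). The score showed no such order, with 31.4% (24.7 to 39.0%) of calls with a score of 5 to 10 and 25.9% (16.1 to 38.9%) of those at 50 or more within Hi-C pairs. Calls of a bait to adjoining fragments, of which there were 58, were within Hi-C pairs in 53.4% (40.8 to 65.7%), against 22.8% (18.8 to 27.4%) of the other 364. Adjoining fragments usually lie in the same area, so this comparison is not separate from the number of calls per area pair. Counted as calls, the share was 45.5% in area pairs with 2 calls and 57.6% in those with 3 to 9. Of the 30 calls that share sequence, 5 were within Hi-C pairs (16.7%, 7.34 to 33.6%), against 27.8% (23.6 to 32.4%) of those that do not, and these intervals overlap.

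**Figure D4:**
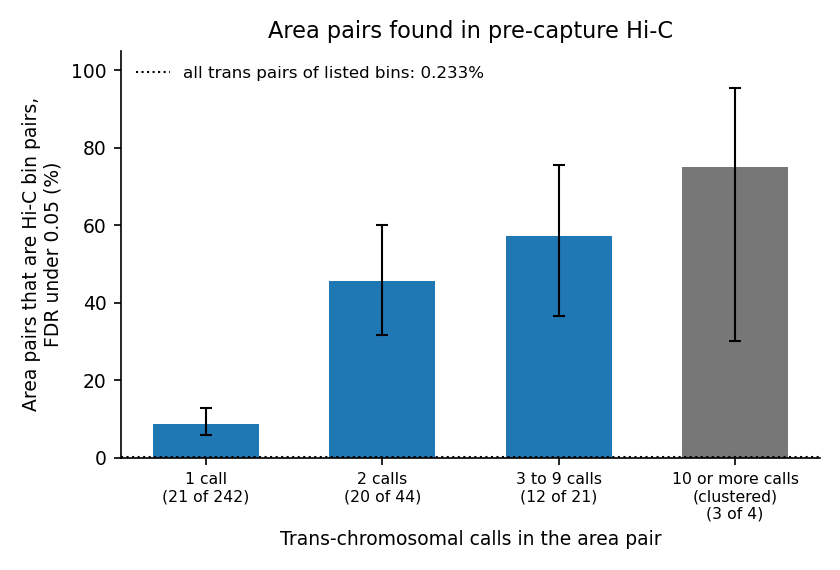
Percentage of area pairs that are 1-Mb Hi-C bin pairs with an FDR under 0.05, by the number of trans-chromosomal calls in the area pair. Bars are shares and lines are Wilson 95% intervals, the grey bar gives the 4 clustered area pairs, and the dotted line lies at the 0.233% of all trans-chromosomal pairs of listed bins. The share is 8.68% at 1 call and 57.1% at 3 to 9 calls. In every bar, area pairs with an end in an unlisted area count as no Hi-C pair.

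In the 53 area pairs, the ratio of observed to expected Hi-C read pairs had a median of 3.97 (quartiles 2.82 and 5.88), and over all 7060 trans-chromosomal Hi-C pairs a median of 2.17 (2.00 and 2.45). The highest ratio, 11.8, belonged to the areas of Rnase6 and Eddm3b on chromosome 14 and of Hmgxb4, a chromatin protein gene, on chromosome 8, with 165 read pairs where 13.97 were expected. The Rnase6 and Eddm3b baits, which are neighbours, both called the same fragment (chr8:77555345-77557444), on 4 and 3 reads. Next came Hjurp, the chaperone that loads the centromeric histone, with a fragment on chromosome 4 (129 against 13.6), and Oprm1, the mu opioid receptor, and Ipcef1 with a shared fragment of chromosome 12 (111 against 12.9). The fourth was Olfr622, an olfactory receptor, with a fragment of chromosome 12 (19 against 2.27). Tspyl5 called a pair of adjoining fragments at Wars2, a mitochondrial tRNA synthetase gene (92 against 11.4), and Plekhf2 called a pair of adjoining fragments at Srsf7, a splicing factor gene (131 against 17.2). Each of these calls rested on 3 to 6 reads.

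**Figure D5:**
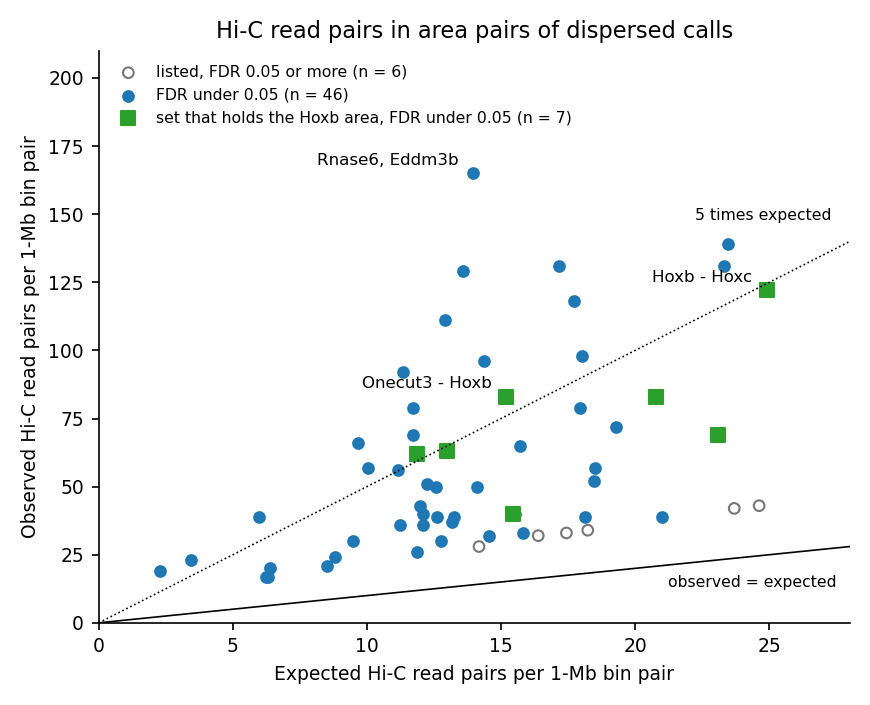
Observed against expected Hi-C read pairs for each area pair of dispersed calls that is in the Hi-C list. Filled points have an FDR under 0.05, open circles do not, and green squares are the 7 area pairs of the set that holds the Hoxb area. The solid line is equality and the dotted line 5 times the expected number, and the Rnase6 and Eddm3b area pair stands highest at 165 read pairs.

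When areas joined by a dispersed call were linked, the 471 areas fell into 164 separate sets, of which 117 were single pairs and 11 had 6 or more areas. The set that holds the Hoxb cluster on chromosome 11 held many developmental genes. Hox genes specify position along the body axis, and Pax, Lhx and Onecut genes encode further homeodomain or related factors of the embryo. The set had 11 areas on 9 chromosomes and 18 calls, of which 15, in 7 area pairs, were within Hi-C pairs. The other 3 calls, of Gm6531, Rfpl3s and Prph, carry no developmental gene, and that of Gm6531 had the highest read count (11) and score (49.59) of the set. By the annotation, 11 calls carry a Hox or other developmental transcription factor at both ends and 1 more joins the signalling gene Wnt10b to Onecut3. These 12 calls lie in 6 area pairs, and all 12 were within Hi-C pairs. Of the 23 dispersed calls with a developmental gene at 1 end or both, 19 were within Hi-C pairs. The call of Lhx3, named after its values were seen, was not, with 9 reads and a score of 45.09. Neither were the calls between Bmp2k and Gm5616, on 3 reads. By the names of the baits alone, 4 calls had a Hox or other developmental transcription factor at both ends, which is 0.948% of 422 (0.369 to 2.41%). Of all baits with a call, 0.203% are Hox and 1.21% other developmental transcription factor baits. Of the 310 baits of dispersed calls these were 1.29% (0.503 to 3.27%) and 1.61% (0.691 to 3.72%). The Hox share comes from 4 baits, all but Hoxc5 in the Hoxb cluster. Such neighbours are not independent, so the intervals do not decide whether the shares differ. Core pluripotency, histone and clustered protocadherin genes were at no bait of a dispersed call, which allows up to 1.22% of baits by the Wilson bound. Of all baits with a call they are 0.0984%, 0.264% and 0.123%.

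The Hoxb and Hoxc clusters, on chromosomes 11 and 15, were joined by 6 calls, and their areas held 122 Hi-C read pairs where 24.9 were expected. The Hoxb7 bait (chr11:96143220-96152069), which also holds Hoxb8, and the Hoxc5 bait (chr15:102843784-102847039) called each other on 4 reads, with scores of 8.87 and 7.93. The bait named for 0610040B09Rik, on which Hoxb5 lies, and that of the microRNA gene Mir196a-2, on which Hoxc9 lies, did so too on 4 reads (8.94 and 8.70). Hoxb6 reached a fragment with an exon of Hoxc11, and Mir196a-2 one with a start of Hoxb3, on 3 reads each. Onecut3 (chr10:79955846-79964170) and Hoxb3os, an antisense gene of the Hoxb cluster on whose bait Hoxb2 also lies, called each other on 4 reads (9.62 and 8.37), and their areas held 83 Hi-C read pairs where 15.2 were expected. The next calls were named after their values were seen. Pax7 reached fragments with exons of Hoxb9 and of Gm11535 and Pax2 one with an exon of Hoxb3, on 3 reads each, with 83 Hi-C read pairs against 20.8 expected and 69 against 23.1. Lhx5 reached a fragment with an exon of Pax7 on 4 reads (40 against 15.5), and Wnt10b, a signalling ligand, the fragment next to the Onecut3 bait, which also holds part of Onecut3, on 3 reads (62 against 11.9). All 12 calls with an end in the Hoxb area were within Hi-C pairs, and they rested on 3 or 4 reads. No pair of fragments in this set shared sequence.

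The 150 bases before an annotated transcript start of 3 of these genes are shown in mm9, 5′ to 3′ in the sense of the gene. Each CpG is in capitals. Where a bait holds several starts of the gene, the most upstream was taken, so a stretch need not be the main promoter. That of Hoxb7, whose bait also holds Hoxb8, runs into homeobox coding sequence.

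Hoxb7, chr11:96145421-96145570, plus strand: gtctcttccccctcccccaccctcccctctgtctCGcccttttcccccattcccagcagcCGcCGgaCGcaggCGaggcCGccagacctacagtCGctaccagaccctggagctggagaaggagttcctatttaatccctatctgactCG
Hoxc5, chr15:102844096-102844245, plus strand: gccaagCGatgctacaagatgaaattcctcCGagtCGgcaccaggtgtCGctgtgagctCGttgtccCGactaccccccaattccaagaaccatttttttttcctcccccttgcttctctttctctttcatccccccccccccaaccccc
Onecut3, chr10:79957501-79957650, plus strand: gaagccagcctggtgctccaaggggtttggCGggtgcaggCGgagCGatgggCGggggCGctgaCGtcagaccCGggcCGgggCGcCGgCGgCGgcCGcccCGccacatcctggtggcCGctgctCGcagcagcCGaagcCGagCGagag

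They held 8, 6 and 19 CpG. Before the starts of 14985 genes on baits with a call, 150 bases held a median of 6 CpG (quartiles 2 and 13), and 90.3% held at least 1. The ratio of observed to expected CpG was also taken over whole fragments. In the 20 fragments of this set's calls within Hi-C pairs its median was 0.356 (0.263 and 0.485). It was 0.218 (0.154 and 0.322) for the 620 fragments of dispersed calls outside this set, within Hi-C pairs or not. All baits with a call had a median of 0.300. In cis-chromosomal calls over 10 Mb it was 0.504 for baits and 0.437 for other ends, so a high ratio was not particular to this set.

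The largest set had 34 areas, 33 area pairs and 55 calls from 24 baits. Within Hi-C pairs were 9 of these calls, and 4 shared sequence. The bait with most calls in it was that of the Sfi1 gene at the start of chromosome 11, in 12 of the area pairs. Sfi1 encodes a centrin-binding protein of the centrosome. Its bait (chr11:3091411-3099770) had 25 dispersed calls to 9 chromosomes, the most of any bait, on 3 to 34 reads. The area of this bait also forms a clustered area pair of 16 calls with an area of chromosome 8, which the rule left out. The Gm11399 bait (chr11:3039562-3056799), which also overlaps Sfi1, had 5 calls on 4 to 64 reads, and all 5 reached fragments that Sfi1 called too. The most reads lay on chr5:33073917-33076763, a fragment that overlaps an exon of the pseudogene Gm2420, with 34 from Sfi1 and 64 from Gm11399. Both also called a fragment at the very start of chromosome 18, on 23 and 13 reads, and adjoining fragments at the start of chromosome 17, on 4 to 10 reads. Of the 25 Sfi1 calls, 10 reached neighbouring areas of chromosome 14, and 15 ended within 500 kb of an assembly gap of at least 10 kb. The bait itself lies 91411 bp from such a gap. No Sfi1 or Gm11399 bait fragment met the criterion for shared sequence with its other end. With alignments of 50 bp and 90% identity, Gm11399 aligned to the chromosome 18 fragment over 152 bp at 91.45%. It also aligned to chr17:3079932-3084135 over 146 bp at 92.47%. Its remaining calls, and the Sfi1 calls to these same fragments, had no such alignment. The area of both baits is in none of the listed Hi-C bins. Without these 2 baits 392 dispersed calls remained, of which 29.1% were within Hi-C pairs (24.8 to 33.8%).

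Ends near gaps were also seen without Sfi1. Of the 646 fragments of dispersed calls, 9.91% lay within 500 kb of a gap (7.83 to 12.5%), against 4.82% (4.64 to 5.01%) of all 52640 listed fragments, and 7.72% (5.87 to 10.1%) when the Sfi1 and Gm11399 calls were left out. Fragments within the first 5 Mb of a chromosome, which is the centromere side in the mouse, made up 4.80% (3.40 to 6.73%), against 1.81% (1.70 to 1.93%) of all listed fragments and 3.70% (2.48 to 5.49%) without these calls. Fragments of clustered calls were near a gap in 9.27% (5.603 to 14.96%) and in the first 5 Mb in 11.9% (7.67 to 18.1%), so both shares lay above those of all listed fragments in clustered calls too. In cis-chromosomal calls over 10 Mb they were 6.02% (4.14 to 8.67%) and 2.55% (1.43 to 4.50%). These intervals overlap those of dispersed calls without Sfi1 and Gm11399. The last 5 Mb held 3.87% of the fragments of dispersed calls (2.63 to 5.65%), against 4.84% (4.66 to 5.03%) of all listed fragments. The part of assembly gaps in these calls was not tested.

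Other baits with several dispersed calls reached 1 place each or several. Gm16040 (chr11:69142695-69154998) had 9 calls of 4 to 7 reads, all in 1 area of chromosome 8. This area pair, with 9 calls, lies just inside the limit, is no pair in the Hi-C list, and lies next to a clustered area pair of 79 calls. The area pair with the next number, 7, joins Ank2, a gene for an ankyrin of the membrane skeleton, on chromosome 3 to the area of Haus7 on chromosome X, with 39 Hi-C read pairs where 5.99 were expected. Just outside the limit lie area pairs with 16 and 20 calls. In all, 11 dispersed calls lay in area pairs next to a clustered one. Fzd8, a receptor for Wnt ligands, called 4 fragments of chromosome 13 that follow each other, on 4 to 8 reads, with 43 Hi-C read pairs where 11.98 were expected. Cd244, a receptor of natural killer cells, had 4 calls in 4 area pairs on 3 to 26 reads, none within a Hi-C pair. The bait of SNORA17.412 reached chromosomes 13, 16 and 14 on 31, 22 and 16 reads, none within a Hi-C pair and none sharing sequence. Among other ends, none had more than 3 dispersed calls. Adjoining fragments in an intron of Pemt, a gene of phosphatidylcholine synthesis (chr11:59812642-59819144 and chr11:59819145-59827918), had 3 each, on 3 to 6 reads, from the neighbouring baits Ccdc30, Guca2a, Rimkla and U6.272 on chromosome 4. This area pair held 139 Hi-C read pairs where 23.5 were expected.

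The other gene lists gave the following counts. Baits named for small RNAs made up 12.6% of the 310 baits (9.34 to 16.7%), against 8.61% of all baits with a call, and were at an end of 59 calls, of which 19 were within Hi-C pairs and 7 shared sequence. Baits of predicted genes made up 22.6% (18.3 to 27.6%), against 17.5%. Developmental signalling genes made up 0.968% (0.330 to 2.81%), against 0.437%, and their 7 calls include those of Fzd8 and Wnt10b. Ribosomal protein baits made up 1.29% (0.503 to 3.27%), against 0.504%. Olfactory and vomeronasal receptors made up 3.23% (1.76 to 5.84%), against 2.94%, and zinc finger proteins 1.29% (0.503 to 3.27%), against 1.44%. A Polycomb gene was the bait of 1 call, 0.323% of baits (0.0570 to 1.80%) against 0.129%, in which Rnf2, which encodes the ubiquitin ligase of Polycomb repressive complex 1, reached chromosome 11 on 9 reads. It too was named after its values were seen.

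By the same rule, 69 of the 288 trans-chromosomal calls of GM12878 were dispersed (24.0%, 19.4 to 29.2%), with a median of 4 reads and a highest read count of 10. The dispersed mESC calls between named genes gave 32 gene pairs, and 0 of them, matched by symbol, were among the 19 gene pairs of the GM12878 trans-chromosomal calls. Pairs with a mouse predicted gene, such as Taf10 and Gm4799, cannot be matched by symbol, and the share of matched pairs over all calls was not computed. The 0 therefore does not show that the cell types differ.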

How the data were processed

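The authors prepared Promoter CHi-C libraries from 2 biological replicates of mESCs, mapped and filtered the reads with HiCUP on mm9 and called interactions jointly with CHiCAGO. The deposited list gives, for each call, a read count (a weighted mean rounded to a whole number) and a CHiCAGO score (soft-thresholded −log weighted p-value, at least 5). The deposited Hi-C list of 1-Mb bin pairs, made with HOMER, gives observed and expected read counts and an FDR, a p-value adjusted by the authors, and 3 of its value columns were not used. The submitters' processing notes also name Bowtie 1.1.0 and HOMER 4.7. The lists used here do not separate the replicates and hold no depth per library, so the depths stated in the study's methods tables were not used. The Hi-C list holds a median of 63524 read ends per bin (12173 to 121335).

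Calls were grouped by 1-Mb areas. Fragments were taken from the mm9 genome and aligned with blastn 2.17.0 (e-value 1e-05). The genome given has no soft-masking, so repeat shares were not computed. Python 3.11.15, pandas 2.3.3, scipy 1.17.1, networkx 3.6.1, pysam 0.24.0, samtools 1.23.1 and matplotlib 3.10.9 were used, and the scripts were tested on simulated data. Shares carry Wilson 95% intervals and no p-value, since there is 1 set of calls. The members, gene lists and measures were chosen with earlier results of these data known. Named genes are those of the highest scores, read counts, numbers of calls, Hi-C ratios and shared sequences, of pairs called from both ends and of the gene lists, and others are stated as such. Alternatives were other area sizes and limits, score, read count, Hi-C FDR and alignment settings, other countings of pairs and baits, and further ones chosen after seeing the data.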

Additional observations from a re-analysis of the deposited data

How the results depend on the processing

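Of 71 alternative values, 59 lay within 1.5 times the value or within its interval and 12 moved. The number of calls was 278 at a score of at least 10 and 162 at a read count of at least 5, and the median read count was then 5 and 6.5. The bait-to-bait share was 7.5% with each fragment pair counted once and 7.5% in the browser list, which counts pairs once too. The share within Hi-C pairs was 17.3% over distinct bin pairs. The share with shared sequence was 12.3% at a read count of at least 5, and 14.5% with alignments of 50 bp and 90% identity. By that looser criterion it was 6.37% in clustered calls and 8.07% in cis-chromosomal calls over 10 Mb. The share of calls with a Hox or developmental transcription factor at both ends was 0% at a score of at least 10, 0% at a read count of at least 5, and 2.61% with the genes that the annotation places on a fragment, a setting chosen after seeing the data. All such calls rest on 3 or 4 reads. No paired analysis was possible because the calls were made jointly and the columns carry no replicate, and for the same reason leaving out a replicate was not possible. The browser list gives no read count. Calls on few reads, unlisted Hi-C areas and shared steps of Hi-C and CHi-C limit what these values show.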
